A study of Mus musculus with 28 samples.

Results

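Total mRNA of primary cortical neurons was compared between neurons expressing human TDP-43 with the A315T substitution (A315T) and non-transgenic neurons (WT). The libraries were chosen by cell type, library type and genotype in the sample labels, which gave 5 of the 28 samples of the series, 3 of A315T and 2 of WT. The A315T neurons came from hemizygous C57BL/6J mice that carry a human TARDBP transgene with the A315T change under the prion protein promoter (Prp), and the WT neurons came from non-transgenic littermates of the same strain. All neurons were taken from cerebral cortex at embryonic day 16, received 0.5 µM Ara-C, which acts against dividing cells, on day 4 in vitro, and were harvested on day 14 in vitro. Libraries with the same replicate number share a day in their labels, so A315T replicates 2 and 3 each have a WT library of the same day, while A315T replicate 1 has none. The sources used here do not say how many embryos a culture pooled. Neurons carrying unmutated human TDP-43 (hTDP-43, 3 samples) and the ribosome footprints of the same cultures are given only where they bear on a result.

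TDP-43 is a nuclear RNA-binding protein that binds UG-rich sequences and controls splicing, stability, transport and translation of many neuronal mRNAs. It lowers the level of its own mRNA, and it forms cytoplasmic aggregates in most cases of amyotrophic lateral sclerosis (ALS) and in many of frontotemporal dementia (FTD). Mutations that cause ALS, A315T among them, cluster in its glycine-rich C-terminal part. The mouse gene at the position of the substitution is printed here to show what the endogenous mRNA carries. Mouse Tardbp encodes alanine at that codon, in a coding sequence of 414 codons, in the last of 5 coding exons, on the minus strand of chromosome 4 (GRCm38, chr4:148618549-148618575). The codon is in capitals and 4 codons stand on each side.
Tardbp, codon of the substitution: atgaactttggtGCTtttagcattaac

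Levels below are counts divided by assigned reads and TMM-scaled, times 1e6 (CPM), which can be compared between libraries for a gene but not between genes, since they are not divided by length. Mouse Tardbp was at 72.3, 65.6 and 57.2 CPM in A315T replicates 1, 2 and 3, and at 57.1 and 99.2 CPM in WT replicates 2 and 3. Both groups overlapped, and the log2 fold change of A315T against WT was -0.26 ± 0.29 (SE, n = 3 and 2, edgeR adjusted p = 1.0). Against the WT library of the same day, A315T was 0.20 higher on the log2 scale in replicate 2 and 0.78 lower in replicate 3 (log2 ratio -0.78), and without WT replicate 3 the fitted log2 fold change was 0.18, in the opposite direction. Human transgene reads were not counted separately, and the alignment allowed mismatches, so their part in the count of the mouse gene was not tested. Prnp, the gene of the prion protein whose promoter drives the transgene, was at 314, 372 and 378 CPM in A315T and at 338 and 156 CPM in WT (log2 fold change 0.52 ± 0.33, adjusted p = 1.0). WT replicate 3 stood below the other 4 libraries. These 2 genes are therefore no check of the genotype labels.

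The cultures carried the markers of cortical neurons in all 5 libraries. The neuronal nuclear protein gene Rbfox3 was at 256 to 287 CPM in A315T and at 292 and 196 CPM in WT. The vesicular glutamate transporter gene Slc17a7 was at 776, 904 and 832 CPM in A315T and at 767 and 404 CPM in WT, and Gad1, which makes GABA, was at 195 to 351 CPM in A315T and at 320 and 278 CPM in WT. Astrocyte markers were present at a low level, with 11 of 12 passing the filter on low counts and a summed level of 312 to 557 CPM in A315T against 432 and 478 CPM in WT. Gfap, the intermediate filament of astrocytes, was at 17.8 CPM in A315T replicate 2 and at 1.24 to 6.08 CPM in the other 4 libraries. Microglia markers summed to 4.11 to 5.43 CPM in A315T and 6.68 and 7.29 CPM in WT, none of the 11 passed the filter, and Cx3cr1 and P2ry12 were at most at 2.02 CPM in any of the 5 libraries. Endothelial and mesenchymal markers summed to 8.18 to 11.3 CPM in A315T, 6.92 CPM in WT replicate 2 and 40.1 CPM in WT replicate 3, and none of the 12 passed the filter. The endothelial claudin gene Cldn5 had no read in any library, and most of the excess in WT replicate 3 was in the collagen genes Col1a1, Col1a2 and Col3a1 (8.91, 15.4 and 5.27 CPM). The part of these markers in other results was not tested. The cell cycle genes Mki67 and Top2a were at or below 4.05 CPM.

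The WT libraries differed from each other far more than the A315T libraries did. Between 2353325 and 5395138 reads were assigned to genes in A315T, 3609519 in WT replicate 2 and 3206139 in WT replicate 3. Before TMM scaling, 3 counts thus stand for 0.556 to 1.27 CPM. Lars2, a mitochondrial leucyl-tRNA synthetase gene, is also listed below among genes that hold rRNA-like sequence. Whether its reads came from its mRNA was not tested. Lars2 took 7.49%, 4.85% and 3.25% of the reads in A315T replicates 1, 2 and 3, 3.09% in WT replicate 2 and 18.8% in WT replicate 3. The mean share was 5.19% ± 2.14 (SD, n = 3) in A315T and 10.96% in WT, a mean that no WT library was near (exact permutation test, two-sided, p = 0.8, where 0.2 is the smallest p that 3 against 2 allows). The 10 genes with most reads took 7.31% to 13.7% of the reads in A315T, 6.59% in WT replicate 2 and 32.5% in WT replicate 3 (exact permutation p = 0.8). Protein-coding genes took 93.9% to 96.2% in A315T, 96.9% in WT replicate 2 and 86.9% in WT replicate 3. In the footprint libraries of the same 2 WT cultures, Lars2 took 1.03% and 1.15% of the reads, so the excess of WT replicate 3 was in its total mRNA. The library hTDP-43 replicate 3, of the same day, had 14.2% of its total mRNA reads on Lars2, and A315T replicate 3, also of that day, did not stand apart.

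**Figure D1:**
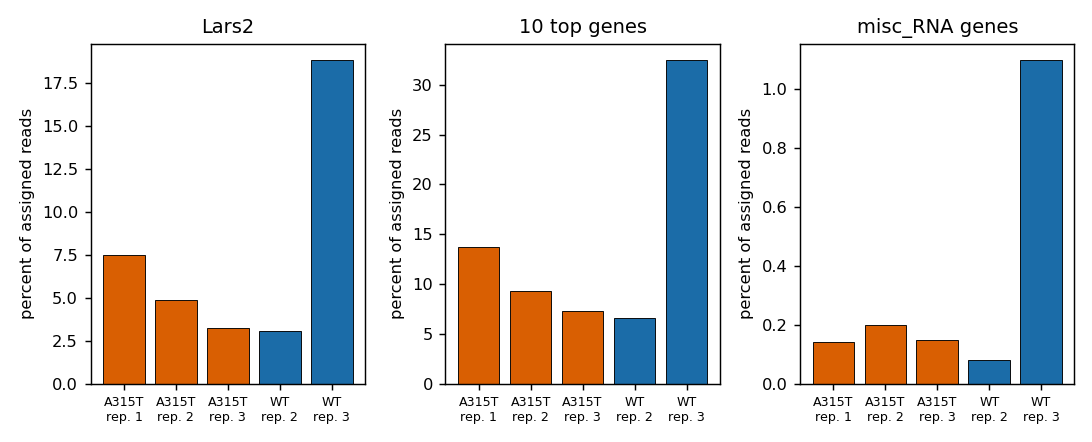
Percent of assigned reads on Lars2, on the 10 genes with most reads and on genes of the biotype misc_RNA in each total mRNA library of A315T (orange) and WT (blue). WT replicate 3 stands above the other 4 libraries in each panel, with 18.8%, 32.5% and 1.10%.

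Across all genes, no difference between A315T and WT neurons passed the test. Of 11927 genes tested with the edgeR quasi-likelihood test, 0 had an adjusted p below 0.05 (0.0%), and the smallest adjusted p was 0.153, of Fam186a. An unadjusted p below 0.05 was reached by 196 genes, 174 lower in A315T (1.46% of the genes tested) and 22 higher (0.184%). DESeq2 called 1 gene lower (0.00838%), limma-voom with quality weights called 0, and edgeR without the filter on low counts called 209 of 25620 (0.816%), 208 of them lower. Of the 174 lower genes, 139 differed by more than 2-fold between the WT libraries, whereas 2 of the 22 higher genes did. With the replicate number as a block, 35 genes were called lower (0.293%) and 0 higher (0.0%). A315T replicate 1 is alone in its block, so the genotype effect in that fit rests on the libraries that share a day with WT. The pairs leave little replication, and the spread used in that test was borrowed from other genes. The groups did not overlap, all A315T libraries lying on one side of both WT libraries, for 553 genes lower in A315T (4.64%) and 587 higher (4.92%).

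Within replicate 2, where both libraries had a like composition, 320 genes differed between A315T and WT by more than 2-fold, on CPM with 1 added. Within replicate 3 the number was 2570. The SD of the log2 ratio over the tested genes was 0.39 within replicate 2, 0.88 within replicate 3, 0.95 between the WT libraries and 0.42 between A315T replicates 2 and 3. A difference of more than 2-fold in the same direction within both replicates was seen for 50 genes lower in A315T and 14 higher, and 110 genes passed that size in opposite directions. Leaving out WT replicate 3 gave 1 gene called (0.00814%), and leaving out WT replicate 2, so that A315T was set against WT replicate 3 alone, gave 1573 (12.5% of 12558). In both fits the lone WT library is assumed to vary like the A315T libraries.

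**Figure D2:**
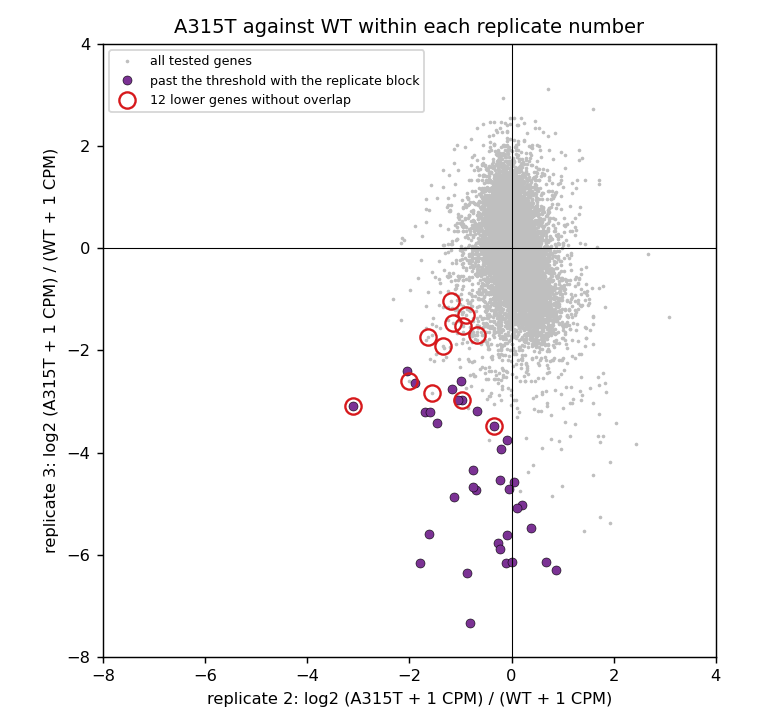
Log2 ratio of A315T to WT within replicate 2 (horizontal) and within replicate 3 (vertical) for the 11927 tested genes, with 1 CPM added to each value. Genes called lower with the replicate block (filled) have a median of -4.68 on the vertical axis and -0.69 on the horizontal axis, and the 12 lower genes without overlap and with the smallest p (circles) lie below 0 on both.

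The gene that differed most steadily between the genotypes was Fam186a, a little-studied gene on the minus strand of chromosome 15 (GRCm38, chr15:99918348-99967075). It had 15, 10 and 9 reads in A315T replicates 1, 2 and 3 and 165 and 67 reads in WT replicates 2 and 3, which is 2.79, 3.88 and 2.31 CPM against 40.8 and 27.1 CPM. Every A315T library was well below both WT libraries, and the log2 ratio to the WT library of the same day was -3.10 in replicate 2 and -3.09 in replicate 3. The fitted log2 fold change was -3.53 ± 0.36 (SE), 11.5-fold lower in A315T. Its adjusted p was 0.153 in the main edgeR fit, 8.0e-06 with the replicate block, 2.69e-09 with DESeq2, 0.00295 without WT replicate 3 and 0.00169 without WT replicate 2. With all 8 neuron libraries in the fit it was 1.0. In hTDP-43 neurons, whose replicates 2 and 3 had only 986092 and 600385 reads, the level was 4.08, 53.1 and 8.09 CPM, so libraries without the A315T substitution spanned both levels. In footprints Fam186a did not pass the filter on low counts. It had 102 reads (75 CPM) in WT replicate 2 and 3 reads (5.35 CPM) in WT replicate 3. A315T replicates 1, 2 and 3 had 8, 0 and 0 reads (3.22, 0.0 and 0.0 CPM). Before TMM scaling, 3 footprint counts stand for 6.33 CPM in A315T replicate 2, 2.88 CPM in A315T replicate 3 and 5.21 CPM in WT replicate 3. Only WT replicate 2 was thus clearly above A315T in footprints.

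Other genes below both WT libraries were mostly lower by smaller factors, and of the 11 named next only Zfyve26 and Stard8 passed the threshold with the replicate block. Kl encodes klotho, a co-receptor of fibroblast growth factor signalling, and was at 192, 198 and 224 CPM in A315T against 365 and 557 CPM in WT (log2 fold change -1.17 ± 0.25, unadjusted p = 0.00151, edgeR adjusted p = 1.0). Nfkb1, which encodes a subunit of the transcription factor NF-κB, was at 50.0, 39.2 and 40.8 CPM in A315T against 90.5 and 84.3 CPM in WT (log2 fold change -1.01 ± 0.23). The WT libraries were nearly equal for Nfkb1, and the 3 A315T libraries lay close together below them. The tetraspanin gene Tspan33 was at 49.3, 48.1 and 36.2 CPM in A315T against 77.7 and 119.9 CPM in WT (log2 fold change -1.15 ± 0.28).

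Col6a2, a chain of the matrix protein collagen VI, was at 19.9, 9.70 and 12.8 CPM in A315T against 32.4 and 45.4 CPM in WT (log2 fold change -1.43 ± 0.35). Micall2, which encodes an actin-associated adaptor of membrane traffic, was at 18.0, 11.6 and 15.9 CPM in A315T against 27.0 and 45.4 CPM in WT (log2 fold change -1.23 ± 0.33). The phospholipase D family gene Pld5 was at 3.16, 4.27 and 3.85 CPM in A315T against 9.15 and 13.0 CPM in WT. Vsig8, the retinol-binding protein gene Rbp2 and the arachidonate lipoxygenase gene Alox12 were lower in the same way, but at 0.770 to 2.42 CPM in A315T, with 2 to 13 reads in each of those libraries. Kl, Nfkb1, Col6a2 and Micall2 were variable in hTDP-43 neurons, where Nfkb1 was at 33.6, 162 and 54.6 CPM and Micall2 at 7.31, 83.5 and 32.3 CPM. Tspan33, at 37.1, 38.9 and 66.7 CPM, was below both WT libraries in every hTDP-43 library. The same held for Pld5, at 4.64, 4.74 and 4.04 CPM on 33, 5 and 2 reads.

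For Zfyve26, a gene of hereditary spastic paraplegia, and Stard8, a GTPase-activating protein gene, the distance from WT rested on WT replicate 3. Zfyve26 was at 24.9, 24.5 and 25.4 CPM in A315T, 31.4 CPM in WT replicate 2 and 292 CPM in WT replicate 3. Stard8 was at 13.0, 7.37 and 9.49 CPM in A315T, 15.3 CPM in WT replicate 2 and 81.0 CPM in WT replicate 3. Their adjusted p with the replicate block was 0.0444 and 0.0211.

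**Figure D3:**
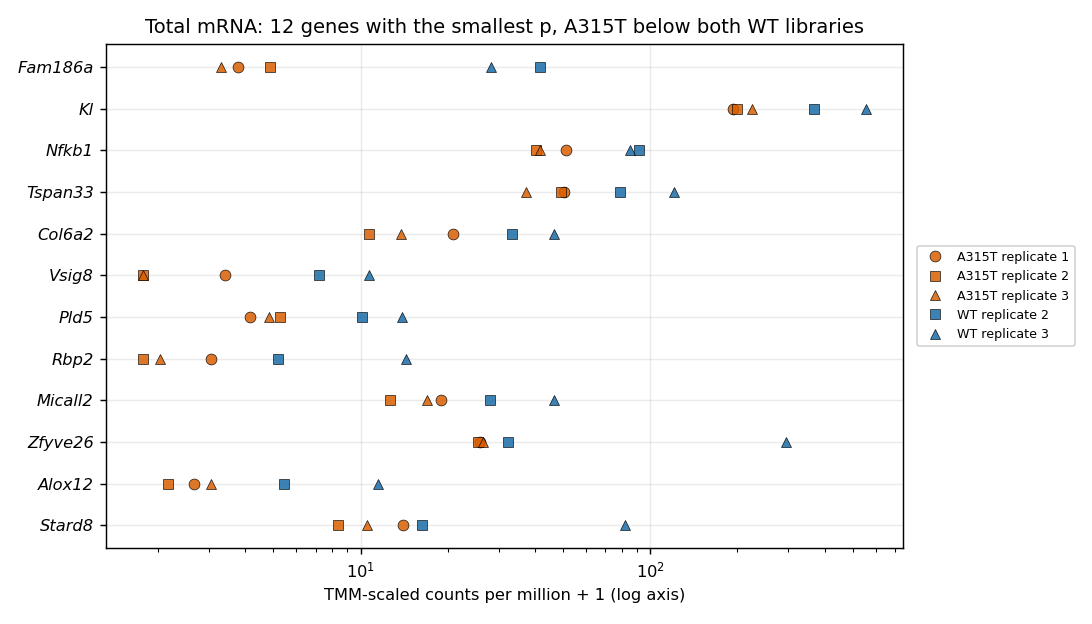
Level of the 12 genes with the smallest p among those below both WT libraries, as TMM-scaled CPM with 1 added, on a log axis, 1 symbol for each library (A315T orange, WT blue, shape for the replicate number). A315T symbols lie left of both WT symbols in every row, and Zfyve26 and Stard8 have WT replicate 3 (292 and 81.0 CPM) far from WT replicate 2.

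The 35 genes called with the replicate block were mostly genes with high counts in WT replicate 3 alone. WT replicate 3 was above WT replicate 2 for 34 of them and more than 4 times above it for 32. A315T replicate 3 was below WT replicate 3 for all 35, while A315T replicate 2 was below WT replicate 2 for 28. The median log2 ratio of A315T to WT over the 35 genes was -4.68 within replicate 3 and -0.69 within replicate 2. WT replicate 2 was within or below the A315T range for 29 of them, and the groups did not overlap for 6. In the library hTDP-43 replicate 3 the level was above every A315T library for all 35.

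Sspo, which encodes the giant secreted protein SCO-spondin, was at 65.6, 10.5 and 60.3 CPM in A315T, 20.0 CPM in WT replicate 2, 5044 CPM in WT replicate 3 and 3541 CPM in hTDP-43 replicate 3. The LIM homeobox gene Lhx9 was at 1.55 to 6.13 CPM in A315T, 3.46 CPM in WT replicate 2 and 453 CPM in WT replicate 3. Nid1, a basement membrane protein gene, was at 3.49 to 11.5 CPM in A315T, 3.46 CPM in WT replicate 2 and 450 CPM in WT replicate 3. WT replicate 2 was within the A315T range for Sspo and Lhx9 and slightly below it for Nid1. The agrin receptor gene Lrp4, the DNA glycosylase gene Neil2, the kinase gene Nek11, the cytokine receptor subunit gene Il18rap and the predicted genes Gm7631 and B230208H11Rik, all among the 10 genes with the smallest p in that fit, had the same pattern, with 85.5 to 458 CPM in WT replicate 3 and 1.24 to 5.44 CPM in WT replicate 2. Without WT replicate 3 the fitted log2 fold change was above 0 for Sspo (1.21), Nid1 (1.03) and Lrp4 (0.13). It stayed below 0 for Lhx9 (-0.025) and Neil2 (-0.20). Within replicate 2 the log2 ratio of A315T to WT was -0.87 for Sspo, -1.13 for Lrp4 and 0.01 for Nid1.

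Of 4779 tested genes with at least 50 CPM in a WT library, 128 were more than 4 times higher in WT replicate 3 than in WT replicate 2 and 22 were more than 4 times lower. The 128 genes, 90 of them protein-coding, included small structured RNAs. Rny3 and Rny1, which encode Y RNAs, were at 217 and 206 CPM in WT replicate 2 and at 6480 and 4104 CPM in WT replicate 3, with 506 to 754 CPM and 308 to 502 CPM in A315T. The replication factor gene Rfc1 was at 26.0 CPM in WT replicate 2 and at 2924 CPM in WT replicate 3, against 22.1 to 56.3 CPM in A315T. Genes that were low in WT replicate 3 included Uqcr11, a short subunit gene of respiratory complex III, at 29.6 CPM against 189 CPM in WT replicate 2 and 148 to 165 CPM in A315T, and the selenoprotein gene Selenom, at 14.6 CPM against 82.6 CPM and 46.5 to 83.9 CPM. For Rny1, Rny3 and Uqcr11 the A315T libraries lay between the WT libraries, and for all 5 genes they were nearer to WT replicate 2 on a log scale.

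Genes above both WT libraries were fewer at a low p, and most had low counts. The 12 with the smallest p included the sphingosine-1-phosphate receptor gene S1pr3, at 6.69, 4.66 and 6.42 CPM in A315T against 2.23 and 1.22 CPM in WT (log2 fold change 1.72 ± 0.54, unadjusted p = 0.0126, adjusted p = 1.0). Cav1, which encodes the caveolae protein caveolin, was at 4.28, 5.82 and 8.72 CPM in A315T against 2.47 and 1.62 CPM in WT. The phosphatase gene Dusp14 was at 37.4, 28.3 and 30.5 CPM in A315T against 22.3 and 13.4 CPM in WT (log2 fold change 0.84 ± 0.31). Cabp7, Cpm, Mfap1b and Csrnp1 were at 4.66 to 13.6 CPM in A315T and at 1.62 to 3.46 CPM in WT. The DNA helicase gene Recql4, Doc2g and the predicted gene Gm13886 had 6 to 22 reads in A315T libraries, 2 or 3 reads in WT replicate 2 and 0 reads in WT replicate 3, which are too few to give a fold.

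Among the genes above both WT libraries were 2 of the 15 immediate-early genes (13.3%, against 4.92% of all genes tested), which neurons transcribe within minutes of electrical activity. Npas4, an activity-dependent transcription factor, was at 54.8, 38 and 31.6 CPM in A315T against 20.5 and 23.9 CPM in WT (log2 fold change 0.91 ± 0.31, unadjusted p = 0.0205, adjusted p = 1.0). The orphan nuclear receptor gene Nr4a1 was at 115, 75.7 and 48.2 CPM in A315T against 41.8 and 32 CPM in WT (log2 fold change 1.11 ± 0.39, unadjusted p = 0.0213, adjusted p = 1.0). Within replicates 2 and 3 the log2 ratio was 0.86 and 0.39 for Npas4, and 0.84 and 0.58 for Nr4a1.

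Of the 15 immediate-early genes, 12 had a fitted value above 0, 0 were called, and the median log2 fold change was 0.73, against 0.00 over all genes tested. A315T replicate 1, which has no WT library of its day, carried much of that: its summed level was 1168 CPM, against 629 and 474 CPM in A315T replicates 2 and 3 and 513 and 549 CPM in WT replicates 2 and 3. The library hTDP-43 replicate 1, of the same day, had 1060 CPM. Arc, a synaptic activity-regulated protein gene, was at 82.2, 32.6 and 23.1 CPM in A315T against 26.0 and 14.6 CPM in WT, and Fosb was at 51.5, 18.6 and 7.95 CPM against 12.1 and 4.05 CPM. Without A315T replicate 1 the median over the list was 0.14 with 9 of 15 members above 0, and with the replicate block it was 0.00 with 7 of 15.

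**Figure D4:**
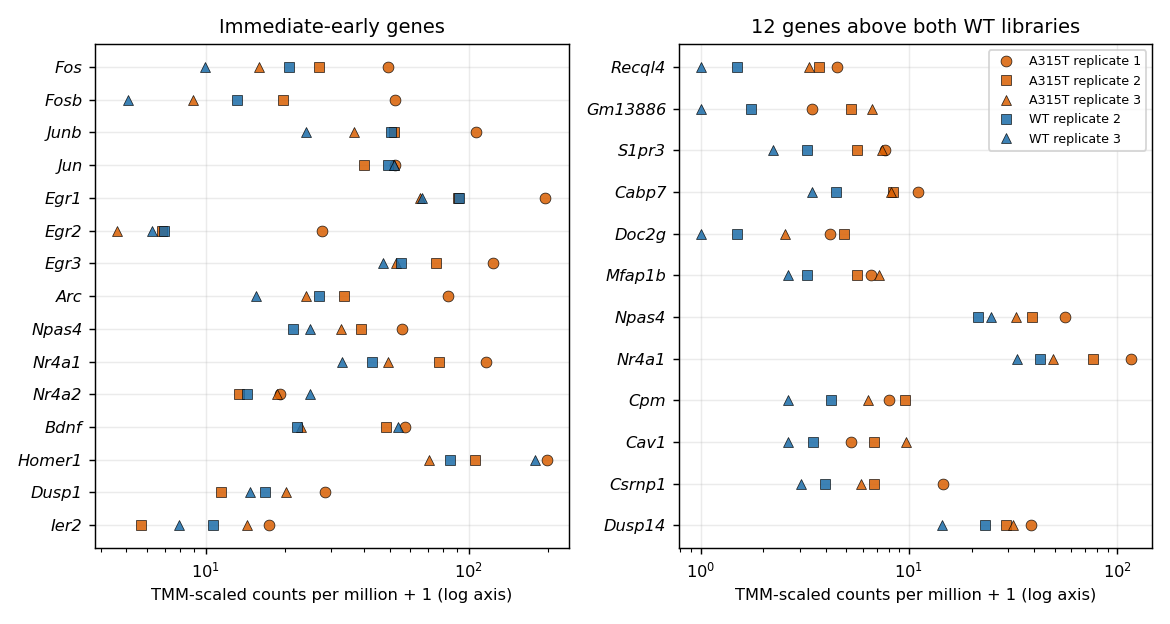
Level of the 15 immediate-early genes (left) and of the 12 genes with the smallest p among those above both WT libraries (right), as TMM-scaled CPM with 1 added, on a log axis, 1 symbol for each library. A315T replicate 1 is the highest library for 14 of the 15 immediate-early genes, and Npas4 and Nr4a1 have all 3 A315T symbols right of both WT symbols.

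Genes of the integrated stress response and the unfolded protein response, which cells turn on when translation initiation or protein folding in the endoplasmic reticulum is disturbed, had a median log2 fold change of 0.35 over 16 tested members, 12 of them above 0 and 0 called. The median was 0.27 within replicate 2 and 0.99 within replicate 3, and 11 of 16 members were higher in A315T within both replicates, while 0 were lower within both. Over all genes tested, 2390 of 11927 were higher within both replicates. The glutathione-degrading enzyme gene Chac1 was at 37.7, 67.9 and 84.7 CPM in A315T against 48.5 and 29.6 CPM in WT (log2 fold change 0.69 ± 0.39, adjusted p = 1.0). Phgdh, the entry enzyme of serine synthesis, was at 7.06, 19.0 and 25.1 CPM against 11.1 and 2.03 CPM, and the pseudokinase gene Trib3 was at 3.16, 9.31 and 13.9 CPM against 3.21 and 4.86 CPM. A315T replicate 1 lay within the WT range for Chac1 and Phgdh and below both WT libraries for Trib3, and 0 members of the list had groups that did not overlap. Atf4, the transcription factor of the response, was at 210, 288 and 334 CPM in A315T and at 298 and 122 CPM in WT.

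Short mRNAs were lower and long mRNAs higher in WT replicate 3 than in WT replicate 2, with a median log2 ratio of -1.02 for protein-coding genes in the shortest class of exon length and 0.69 in the longest. Of 79 cytosolic ribosomal protein genes, 67 had a fitted value above 0 (median log2 fold change 0.29, 0 called), but the median was -0.01 within replicate 2 and 1.11 within replicate 3. Without WT replicate 3, 76 of the 79 were below 0 (median -0.26). Their summed level was 5173, 7666 and 6969 CPM in A315T, 7797 CPM in WT replicate 2 and 3106 CPM in WT replicate 3. Rplp0, a stalk protein gene of the large ribosomal subunit, was at 159, 224 and 206 CPM in A315T against 194 and 93.6 CPM in WT, whereas Rpl27 was at 51.9, 54.3 and 52.4 CPM against 67.0 and 66.0 CPM, below both WT libraries.

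Genes that span 500 kb or more, many of which encode synaptic adhesion molecules and channels and are targets of TDP-43 in their long introns, had the opposite pattern. Of 187 such protein-coding genes tested, 154 had a fitted value below 0 (median log2 fold change -0.25), 0 were called in the main fit and 1 with the replicate block (0.293% of all genes). The median was 0.15 within replicate 2 and -0.84 within replicate 3, and without WT replicate 3 it was 0.24 with 152 of 187 above 0. The same order was seen by exon length over all protein-coding genes: the median log2 fold change was 0.16 for 285 genes with under 1000 exonic bases and -0.17 for 1824 genes with 8000 or more, and without WT replicate 3 these medians were -0.27 and 0.21. A direction for long or short genes in A315T neurons thus depended on which WT library was used.

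**Figure D5:**
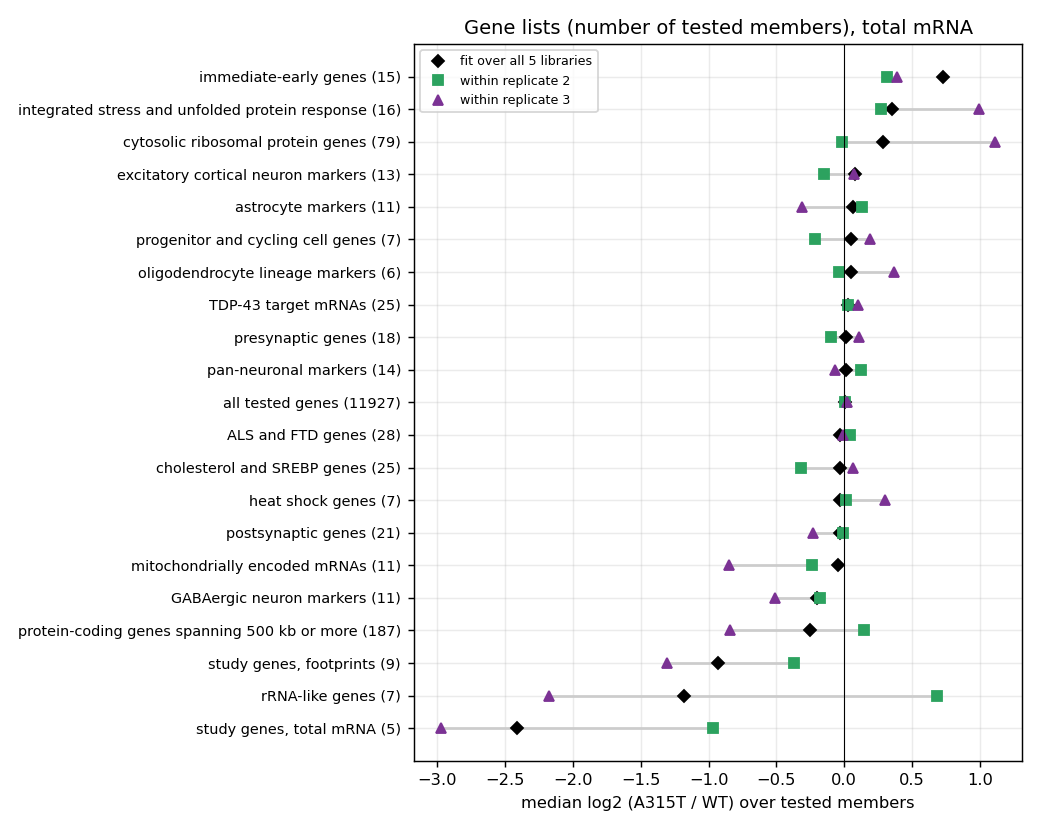
Median log2 ratio of A315T to WT over the tested members of each gene list (number in brackets), from the fit over all 5 libraries (diamonds), within replicate 2 (squares) and within replicate 3 (triangles). Squares and triangles lie on opposite sides of 0 for the genes spanning 500 kb or more (0.15 and -0.84) and lie far apart for ribosomal protein genes (-0.01 and 1.11).

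For 25 mRNAs described as bound or regulated by TDP-43, no member passed the test, and values lay on both sides of 0. The median log2 fold change was 0.03, with 14 members above 0 and 11 below, and medians of 0.03 and 0.10 within replicates 2 and 3. The groups did not overlap for 2 of them (8.0%), both higher in A315T, where the share over all genes was 4.92%: Csnk1d, a kinase that phosphorylates TDP-43, at 168, 151 and 165 CPM against 149 and 110 CPM (log2 fold change 0.32 ± 0.23, adjusted p = 1.0), and Dnajc5, a presynaptic chaperone gene, at 668, 612 and 617 CPM against 608 and 600 CPM. Stmn2, a microtubule regulator gene of axons, was at 729, 838 and 894 CPM in A315T and at 1013 and 582 CPM in WT. Grn, which encodes progranulin, was at 85.7, 55.5 and 62.1 CPM in A315T and at 73.5 and 131 CPM in WT (log2 fold change -0.58 ± 0.32, unadjusted p = 0.105). The long neurexin gene Nrxn3 was at 228, 167 and 133 CPM in A315T, 117 CPM in WT replicate 2 and 393 CPM in WT replicate 3, so its log2 ratio was 0.51 within replicate 2 and -1.56 within replicate 3.

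The 28 genes linked to ALS and FTD divided evenly, 14 above 0 and 14 below, with a median log2 fold change of -0.03 and 0 called. Sod1 was at 94.4, 123 and 119 CPM in A315T and at 145 and 54.7 CPM in WT. Fig4, a phosphoinositide phosphatase gene, was at 33.5, 36.9 and 35.9 CPM in A315T against 43.8 and 41.3 CPM in WT. Its groups did not overlap, and the difference was small, with an unadjusted p of 0.274.

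No list of neuronal identity or synaptic genes had a member that passed the test. The median log2 fold change was 0.01 over 14 pan-neuronal markers, 0.08 over 13 markers of excitatory cortical neurons, -0.20 over 11 markers of GABAergic neurons, 0.02 over 18 presynaptic genes and -0.03 over 21 postsynaptic genes, against 0.00 over all genes tested. Of the 11 GABAergic markers 8 had a fitted value below 0, and their median was -0.18 within replicate 2 and -0.51 within replicate 3. Among excitatory markers, the upper-layer transcription factors Cux1 and Cux2 and the deep-layer factor Tbr1 were below both WT libraries. These are 3 of 13 (23.1%), against 4.64% of all genes tested. Cux1 was at 132, 100.1 and 107 CPM in A315T against 146 and 162 CPM in WT, with a log2 ratio of -0.54 and -0.60 within replicates 2 and 3. Tbr1 was at 85.9, 59.4 and 80.3 CPM against 94.2 and 95.6 CPM (log2 ratios -0.66 and -0.25). The unadjusted p was 0.0834 for Cux1, 0.144 for Cux2 and 0.208 for Tbr1. Of the same list, 2 markers lay above both WT libraries (Slc17a7 and Fezf2, 15.4%, against 4.92% of all genes tested). No difference was called for these markers, and bulk libraries do not separate the number of such neurons from the mRNA level per neuron.

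Of 25 genes of cholesterol synthesis and its regulator SREBP, 18 had a fitted value below 0 (median log2 fold change -0.03, 0 called), with a median of -0.32 within replicate 2, where 24 members were lower or equal, and 0.06 within replicate 3, where 15 were higher. Fdps, which makes farnesyl diphosphate, was at 24.0, 17.5 and 29.8 CPM in A315T against 30.4 and 44.2 CPM in WT (log2 fold change -0.64 ± 0.31, unadjusted p = 0.0771). Of 11 tested mRNAs encoded by mitochondria, 9 were lower in A315T within both replicates and 0 were higher within both. Over all genes tested, 2186 of 11927 were lower within both replicates and 2390 were higher. The mitochondrial mRNAs summed to 11880 CPM in A315T replicate 1, above every other library. They summed to 6429 and 4721 CPM in A315T replicates 2 and 3 and to 7121 and 10270 CPM in WT. Their fitted median was -0.05 in all 5 libraries and -0.68 without A315T replicate 1. Heat shock genes had a median of -0.03 over 7 tested members, oligodendrocyte lineage markers 0.05 over 6, and progenitor and cell cycle genes 0.05 over 7. Genes that hold rRNA-like sequence, Lars2 among them, had a median of -1.18 over 7 tested members, with 0.69 within replicate 2 and -2.18 within replicate 3. Satellite-repeat genes had no reads. Only 2 of 15 interferon-stimulated genes passed the filter on low counts.

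The study named 9 genes from its footprint comparisons and 5 from its total mRNA comparisons, in part from these samples, so their values here are no independent evidence. Of the 9 genes from footprints, 8 had a fitted value below 0, 0 were called in the main fit and 2 with the replicate block (0.293% of all genes). Their median log2 fold change was -0.93, and without WT replicate 3 it was 0.17 with 5 of the 9 above 0. Camta1, a calcium-responsive transcription activator gene, was at 195, 161 and 136 CPM of total mRNA in A315T and at 132 and 244 CPM in WT (log2 fold change -0.20 ± 0.31). Mid1ip1, which encodes the microtubule-associated protein MIG12, was at 80.3, 36.9 and 43.1 CPM against 48.0 and 51.0 CPM (log2 fold change 0.12 ± 0.36), and Dennd4a, a Rab exchange factor gene, was at 87.7, 58.2 and 43.4 CPM against 49.7 and 109 CPM (log2 fold change -0.32 ± 0.41). The groups overlapped for all 3, and the adjusted p was 1.0 for each. The parathyroid hormone receptor gene Pth1r was at 11.2, 4.27 and 7.95 CPM in A315T against 10.1 and 32 CPM in WT.

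All 5 genes from the total mRNA comparisons, which in neurons involved hTDP-43 libraries, had a fitted value below 0 and an unadjusted p below 0.05, 0 were called in the main fit, and 3 were called with the replicate block (Ccn1, Stard8 and Csf2), against 0.293% of all genes. WT replicate 3 was above every other of the 5 libraries for each. The volume-regulated channel gene Ttyh1 was at 470, 318 and 289 CPM in A315T, 285 CPM in WT replicate 2 and 7863 CPM in WT replicate 3. The matricellular protein gene Ccn1 (Cyr61) was at 11.9, 3.88 and 14.1 CPM in A315T, 9.89 CPM in WT replicate 2 and 101 CPM in WT replicate 3, and the cytokine gene Csf2 was at 8.74, 1.16 and 4.62 CPM, 4.95 CPM and 59.1 CPM. Without WT replicate 3, 4 of the 5 had a fitted value above 0, with a median log2 fold change of 0.072.

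In footprints of the same cultures, fitted in the same way, 0 of 9510 genes were called (0.0%), with 300 at an unadjusted p below 0.05, and 8 were called with the replicate block (0.0841%). The groups did not overlap for 894 genes lower in A315T (9.4%) and 880 higher (9.25%). Of the 174 genes lower in total mRNA at an unadjusted p below 0.05, 104 were tested in footprints, 63 had the same sign and 12 also had an unadjusted p below 0.05. Of the 22 higher genes, 10 were tested in footprints, 7 had the same sign and 3 also had an unadjusted p below 0.05. Over all 9510 genes tested in footprints, 4731 had a fitted value below 0, and 145 were lower at an unadjusted p below 0.05. Nfkb1 was at 80.5, 39.6 and 48.9 CPM of footprints in A315T against 604 and 94.6 CPM in WT, and Micall2 at 3.22, 6.26 and 4.08 CPM against 55.1 and 12.5 CPM, below both WT libraries in each case. The footprints of WT replicate 2 carried most of that distance. Micall2 had only 8, 3 and 4 footprint reads in A315T and 7 in WT replicate 3, against 75 in WT replicate 2. Npas4 footprints were at 70.8, 37.5 and 23.4 CPM in A315T against 22.8 and 21.4 CPM in WT, and Nr4a1 footprints at 144, 66.7 and 41.8 CPM against 41.2 and 32.1 CPM, above both WT libraries as in total mRNA. Kl footprints overlapped, with 3002, 1837 and 3103 CPM in A315T and 6267 and 2031 CPM in WT. Of the 35 genes called in total mRNA with the block, 16 were tested in footprints and 5 had a fitted value below 0 there. The footprint and total mRNA libraries come from the same cultures and are not independent samples.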

How the data were processed

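Total mRNA of 5 neuron cultures (3 A315T, 2 WT) was analysed from raw read counts per gene that the authors deposited. The authors selected poly(A) RNA, fragmented and size-selected it, clipped adapters with cutadapt 1.8.1, removed reads matching annotated non-coding RNA with bowtie2, aligned the rest to GRCm38 with TopHat2, allowing more mismatches in longer reads, and counted reads on exons with featureCounts 1.4.4 (Ensembl 80 genes, no strand setting). Reads of a gene and an overlapping antisense gene, or of near-identical copies, therefore cannot be told apart. Of 45513 genes, 44671 were matched by ID to GENCODE M21 for symbols and biotypes. Coordinates are those of the files.

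Counts were tested with edgeR 4.0.16 in R 4.3.3 (minimum count 10, TMM scaling, quasi-likelihood test, Benjamini-Hochberg adjustment over all tested genes, threshold 0.05). The study used DESeq; DESeq2 1.42.0 and limma 3.58.1 were alternatives. The fits were checked on simulated counts, drawn from the same mean profile for all libraries apart from the changed genes. No simulated library had the unlike composition of WT replicate 3, so the check does not bear on it. Shares of reads were compared by exact permutation tests over samples (scipy 1.17.1). Ratios within a replicate number use CPM with 1 added. Same-group libraries carry different days in the labels, and the number of embryos behind each is not given in the sources used here.

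Same-numbered libraries share a day in the labels, and the fit with that block is given where it changed a call. The correlation over genes of their deviations from the group means was 0.23 for replicate 2 and -0.21 for replicate 3, with the 2 WT values fixed to be opposite.

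The 24 gene lists (383 of 387 symbols found in the files) and the members were chosen with earlier results of these data known. Genes were named by rule: past the threshold, at most 15 per direction; the 12 per direction with the smallest p and no overlap; the 10 per direction with the smallest p in the block fit; the 5 genes with the highest share of reads, and the 5 with the largest ratio between the WT libraries in each direction at 50 CPM or more; all targeted and study genes; and the 4 members of each other list with the smallest p, with defining markers. Rny1, Rny3, Ankrd60, Stag3, Dlk1, Col1a2, Col3a1, Stmn2, Dnajc5, Sod1, Atf4, Fezf2 and the sex-linked genes were added after their values were seen. The MN1 libraries were not used here, and some results are not reported here.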

Additional observations from a re-analysis of the deposited data

How the results depend on the processing

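The count of called total mRNA genes was 0 in the main fit, with RLE factors, with total assigned reads, without rRNA-like genes, with a minimum count of 50, with limma-voom, with all 8 neuron libraries and without any A315T replicate. It was 35 with the replicate block, 1 with DESeq2, 209 without the filter on low counts (1 higher, 208 lower), and between 0 and 1573 when single libraries were left out (1573 without WT replicate 2, 1 without WT replicate 3). For footprints it was 0 in the main fit, 8 with the replicate block, 78 without the filter, and 0 to 3 without single libraries. The number of genes lower in A315T without overlap was 553, and was 266 with total assigned reads, 1458 without the filter, 290 with a minimum count of 50, and 859 to 4857 without single libraries. The number higher was 587, and was 1014 without the filter and 937 to 4535 without single libraries. Fewer samples make lack of overlap more frequent by construction. With total assigned reads, the median over all genes moved to 0.18 on the log2 scale, and 8823 of 11927 genes were above 0.

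Over fits that each left out 1 library, the log2 fold change spanned -0.58 to 0.18 for Tardbp, -2.28 to 0.83 for Lars2, -6.72 to 1.21 for Sspo, -4.42 to 0.33 for Ttyh1, -5.90 to 1.03 for Nid1, -4.94 to 0.13 for Lrp4, -3.24 to 0.056 for Ccn1, -3.43 to 0.072 for Csf2, -2.60 to 0.23 for Lrr1, -0.55 to 0.31 for Camta1, -0.31 to 0.32 for Mid1ip1, -0.75 to 0.35 for Dennd4a, -0.058 to 0.96 for Eif4h and -1.50 to 0.22 for mt-Nd5, on both sides of 0. In all of them but Mid1ip1 it was the fit without WT replicate 3 that turned the direction. With total assigned reads Camta1 was at 0.053. Mid1ip1 was at -0.31 with the replicate block, -0.14 with limma-voom and -0.31 without A315T replicate 1. Beyond the 35 total mRNA and 8 footprint genes, the block changed no call. With 2 WT libraries of unlike composition, a difference between genotypes and a difference between single cultures cannot be told apart for most genes. Levels below 0.556 to 1.27 CPM, before TMM scaling, rest on fewer than 3 reads.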

Other observations

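Some genes differed between replicates 2 and 3 in the same direction in both genotypes. Ankrd60, an ankyrin repeat gene of chromosome 2, had 2144 and 640 reads in A315T replicates 1 and 2 and 1143 reads in WT replicate 2, but 0 reads in A315T replicate 3, WT replicate 3 and hTDP-43 replicate 3. With 3 reads taken as the floor, a count of 0 allows up to 0.770 CPM in A315T replicate 3 and 1.22 CPM in WT replicate 3. The levels were 248 CPM in A315T replicate 2 and 283 CPM in WT replicate 2. The footprints had the same pattern, with 84.5 and 33.4 CPM in A315T replicates 1 and 2, 105 CPM in WT replicate 2 and 0 in all replicate 3 libraries. The meiotic cohesin gene Stag3 was at 27.9, 40.8 and 3.34 CPM in A315T replicates 1, 2 and 3 and at 96.5 and 1.62 CPM in WT replicates 2 and 3, and the imprinted gene Dlk1 was at 10.0, 78.0 and 7.44 CPM in A315T and at 253 and 17.4 CPM in WT. These genes were picked after their values were seen, and no test was run.

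All 5 libraries held reads of Y-linked genes. Ddx3y was at 12.6, 16.3 and 3.08 CPM in A315T replicates 1, 2 and 3 and at 5.69 and 28.8 CPM in WT replicates 2 and 3, and Kdm5d was at 15.1, 9.31 and 9.49 CPM against 7.17 and 31.2 CPM. Eif2s3y was at 5.76, 7.76 and 1.54 CPM against 4.95 and 6.08 CPM. The share of male embryos in each culture is not given in the sources used here.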
